A study of Mus musculus with 9 samples.

Results

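The nucleotides described here lie far down messenger RNAs with long leaders in mouse embryonic stem cells. They are every A and C at transcript position 800 or above, counted from 1 at the transcript start, that a set of short amplicons read after chemical probing with dimethyl sulfate. There were 1633 such readings of 16187 A and C readings in all, 681 of A and 952 of C, and they covered 1460 distinct positions because 173 positions were read in 2 overlapping amplicons. They came from 28 of 161 amplicons and 15 of 69 transcripts and reached position 1754. The choice used position and base only, with no measured value. Start codons were not given, so whether each far base lies before the coding sequence was not checked. Leader here means the part of a transcript that was read. The comparison set was the 3388 A and C readings below position 800 in the same transcripts, called near here against far. Stox2 had no near reading, so 14 of the 15 transcripts had both.

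The cells were E14 (genotype E14TG2a), an established mouse embryonic stem cell line, and the leaders were chosen by the submitters from highly conserved 5′ untranslated regions expressed in it. Of the 9 samples, 3 were ATP-depleted, 3 untreated and 3 in vitro refolded, and the labels state that the samples of a condition were independent. ATP-depleted cells spent 10 min in glucose-free medium with 10 mM 2-deoxy-D-glucose and 10 mM sodium azide, and both agents stayed in all later media. Untreated cells had the same handling without that incubation and without the agents. Both cell groups were probed with 1.6% dimethyl sulfate in 250 mM bicine for 6 min at 37 °C. In vitro refolded RNA is RNA taken out of cells and left to fold again, and how it was refolded and probed is not given in the sources used here. Its column headers read not depleted, so it differs from the ATP-depleted samples in that label as well as in refolding. Probing without dimethyl sulfate was not analysed here, and amplicon data hold no cell type markers against which to check the cell line.

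Dimethyl sulfate methylates A and C where their pairing face is free, and reverse transcriptase misreads the methylated base, so a base in a helix or under a bound protein gives few mutations. Reactivity is the share of an amplicon's mutations found at a position, here in counts scaled to a common total within that amplicon and sample (CPM). It is relative: a rise at some bases must be met by a fall at others of the same amplicon, and an overall gain or loss of reactivity cannot be seen. The Gini coefficient measures unevenness, from 0 where all A and C of a stretch are equally reactive towards 1 where a few hold all the signal, and structured RNA tends to give higher values. In cells a 5′ leader is scanned from its cap, and scanning ribosomes and RNA helicases, many of which use ATP, can open its helices.

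Sequences in which many bases shifted are given first. Each line shows 30 bases of a leader in which many A and C differed between RNA refolded in vitro and untreated cells, written as DNA from the deposited base column, with capitals for the A and C that passed the test (adjusted p under 0.05) in the direction named in at least 1 amplicon. Windows were picked after their values were seen, by the number of capitals, so they are descriptions and carry no test of their own.
Ddx17, positions 821 to 850, higher in vitro: CACtgatcctCttttACtCtgttgggAtgA
Brd2, positions 1533 to 1562, higher in vitro: AgttgcggggAggAcggcgCAggagacAgC
Brd2, positions 1566 to 1595, lower in vitro: CcCgCCggtCCCgCAACgaggctgacgCct
Brd2, positions 1609 to 1638, lower in vitro: CagCggccttCcCCcCACttcCCgggttat
Ddx17, positions 871 to 900, lower in vitro: CAgggcagttactaacttCatCttCtCCCC
The Ddx17 and Brd2 leaders each hold windows of both kinds.

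Of the 15 leaders, 14 are named here, and they belong to genes of varied function. Brd2, a bromodomain reader of acetylated histones on chromosome 17, gave 537 of the far readings. Chtop, a chromatin and mRNA export factor on chromosome 3, gave 230, and Mbd5, a methyl-CpG-binding domain protein on chromosome 2, gave 202. Smad6, an inhibitory SMAD of BMP signalling on chromosome 9, and Taok2, a protein kinase on chromosome 7, gave 105 each. D830031N03Rik on chromosome 4 gave 101, the storkhead-box gene Stox2 on chromosome 8 gave 89 and the DEAD-box RNA helicase Ddx17 on chromosome 15 gave 85. The histone demethylase Kdm2a on chromosome 19 gave 36, the apoptosis inhibitor Bcl2 on chromosome 1 gave 22 and the splicing regulator Mbnl1 on chromosome 3 gave 14. The heparan sulfate synthase Ext1 on chromosome 15 gave 10, the Groucho-family co-repressor Tle4 on chromosome 19 gave 9 and the JmjC-domain gene Jmjd1c on chromosome 10 gave 7. Names and chromosomes are those of RefSeq for GRCm38.p6. The far positions had 56.3% G and C against 57.2% for the near ones, but single leaders differed more: the Chtop leader went from 60.6% near to 41.8% far, and D830031N03Rik from 57.6% to 36.4%.

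Depth was uneven. The 252 libraries of the far amplicons, 1 for each amplicon and sample, held 484 to 239904 mutation counts with a median of 38947.5. Medians were 59399.5 in ATP-depleted, 47427.5 in untreated and 26019.5 in refolded samples, and 3, 4 and 13 of 84 libraries had under 5000 counts. A few libraries stood apart. Over the log2 values of all A and C of an amplicon, near ones included, the 3 refolded Tle4 libraries, with 484, 505 and 548 counts, correlated at r = 0.422 or less with each other. Refolded Bcl2 replicate 2 correlated at r = 0.347 or less with the others over the whole amplicon and at up to 0.629 over its far bases. Refolded Smad6 libraries correlated at 0.504 to 0.610 and those of Mbd5 amplicon 1074 to 1324 at 0.503 to 0.554. Those of Mbnl1 amplicon 613 to 863 correlated at 0.456 to 0.673. Across all 1633 far readings, the mean r between replicates was 0.896 for ATP-depleted, 0.881 for untreated and 0.813 for refolded samples. Between untreated and refolded samples it was 0.738, and between ATP-depleted and untreated samples 0.886. Cell samples of the 2 conditions therefore resembled each other about as much as replicates did, and refolded samples stood away from both.

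The ratio of far to near reactivity was taken leader by leader. In each sample the median far reactivity of a transcript was divided by its median near reactivity, and the median over the 11 transcripts with at least 10 readings on both sides was taken as log2. It was 0.0717, 0.0977 and 0.106 in ATP-depleted replicates 1 to 3, 0.138, 0.0292 and 0.0847 in untreated replicates, and 0.0572, 0.113 and 0.0804 in refolded replicates. All 9 values lay above 0, and the groups overlapped. CPM is scaled to a fixed total within each amplicon, and most far and near readings come from different amplicons, so a ratio near 0 is largely set by that scaling and does not show that far and near bases are equally reactive. The difference was -0.00035 for refolded against untreated (p = 1.0), -0.0084 for refolded against ATP-depleted (p = 0.8) and 0.0081 for ATP-depleted against untreated (p = 0.8) by the exact two-sided permutation test of 3 samples against 3, for which the smallest possible p is 0.1. Single leaders differed in this ratio. Far over near was below 0 in all 9 samples for Ddx17, from -0.491 to -0.134, and for D830031N03Rik, from -0.662 to -0.0638. It was above 0 in all 9 samples for Kdm2a (0.207 to 0.484), Taok2 (0.0572 to 0.575), Chtop (0.0503 to 0.367) and Mbd5 (0.0141 to 0.331).

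Position in an amplicon moves with position in a transcript, since amplicons on both sides of 800 hold the far bases at their downstream end. In the 161 amplicons together, the last 50 positions were 0.139 to 0.255 log2 units above the rest in the 9 samples. Leaving out 25 positions at each amplicon end gave a refolded minus untreated difference in far over near of 0.159 in place of -0.00035, and 0.167 in place of -0.0084 against ATP-depleted samples. In the 10 amplicons with at least 10 readings on both sides, the median log2 ratio of far to near was 0.0880 ± 0.0604 in ATP-depleted, 0.161 ± 0.0644 in untreated and 0.174 ± 0.0637 in refolded samples (SD, n = 3). Single amplicons lay far from these medians in both directions. The Chtop amplicon from 696 to 946 was above 0 in all 9 samples, at 1.11 to 2.90. The Ddx17 amplicon from 639 to 889 was below 0 in all 9 samples: its far A and C were at -2.92, -3.33 and -2.91 log2 units from its near ones in ATP-depleted samples and at -2.85, -2.99 and -3.12 in untreated samples, against -0.546, -0.419 and -0.422 in refolded samples. The far part of this amplicon is the stretch that holds the first window above. The overlapping Ddx17 amplicon 731 to 981 had the refolded samples lowest instead, at -0.396, -0.560 and -0.584 against 0.134, 0.0899 and -0.025 in untreated and 0.345, 0.673 and 0.348 in ATP-depleted samples.

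A stayed more reactive than C, and the gap was wider after refolding. Median far A was 8453, 8095 and 9109.7 CPM in ATP-depleted, 8715, 8413 and 9256 CPM in untreated and 9274, 9346 and 9549.8 CPM in refolded samples. Median far C was 4725, 4708 and 4559 CPM, then 4894, 4836 and 4951 CPM, then 4482, 4368 and 4429 CPM. Refolded samples were the highest for A and the lowest for C, with no overlap with either cell group. Far C was also lower in every ATP-depleted than in every untreated sample, with a difference of means of -229 CPM, and near C likewise, with -218 CPM. Each had p = 0.1 in the exact two-sided permutation test (adjusted 0.2). The far A to C ratio was 1.84 ± 0.145 in ATP-depleted, 1.80 ± 0.0663 in untreated and 2.12 ± 0.0462 in refolded samples (SD, n = 3). Its log2 rose by 0.240 from untreated and by 0.212 from ATP-depleted to refolded samples, each with p = 0.1, the smallest the exact two-sided permutation test can give (0.2 after Benjamini-Hochberg adjustment over 42 sample-level tests). ATP-depleted and untreated samples differed by 0.0285 (p = 0.8, exact permutation test). Near bases had a wider gap still, with ratios of 1.98, 1.93 and 2.44, and the far change from untreated to refolded samples was 0.103 log2 units smaller than the near one, again with the smallest possible p of 0.1 in the exact permutation test.

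**Figure D1:**
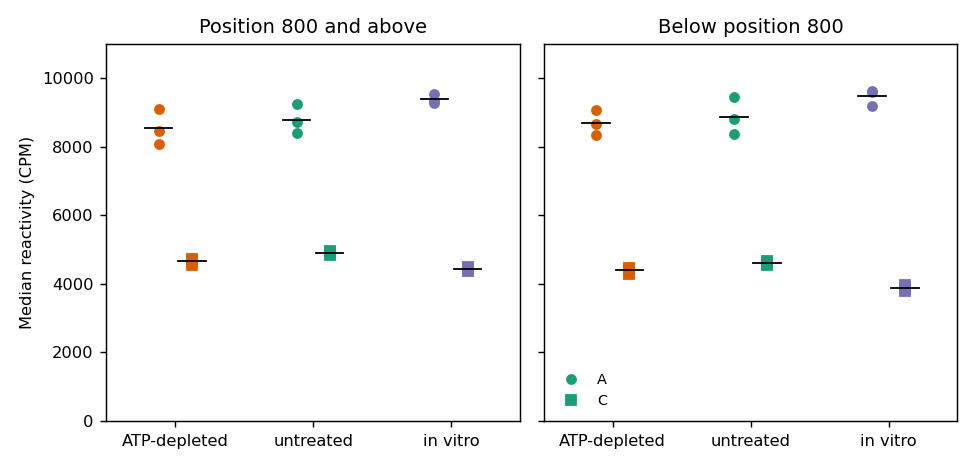
Median reactivity (CPM, linear axis from 0) of A (circles) and C (squares) in each of the 9 samples, at or above position 800 on the left and below it in the same transcripts on the right; short black lines are group means of 3 samples. Far A of refolded samples lies between 9274 and 9549.8 CPM, above all cell samples, and far C between 4368 and 4482 CPM, below all cell samples.

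Far leader RNA became more uneven when refolded. For each amplicon the Gini coefficient was taken over its A and C on each side of position 800 where at least 10 were read, which gave 23 far stretches, 38 near stretches of the same transcripts and 110 stretches of other transcripts. All 171 were tested together in limma, and adjusted p-values were taken over all of them. In vitro against untreated, 18 of 23 far stretches passed, 16 with a higher and 2 with a lower Gini coefficient in vitro, where 80.7% of all stretches passed, 77.8% higher and 2.92% lower. Against ATP-depleted cells, 17 passed, 15 higher and 2 lower, where 79.5% of all stretches passed, 76.6% higher and 2.92% lower. Between ATP-depleted and untreated cells no far stretch passed and none had an unadjusted p under 0.05, where 0% of all stretches passed. The share of far stretches called was thus near that of all stretches in each comparison. The median change from untreated to refolded samples was 0.0671 over far and 0.0919 over near stretches.

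**Figure D2:**
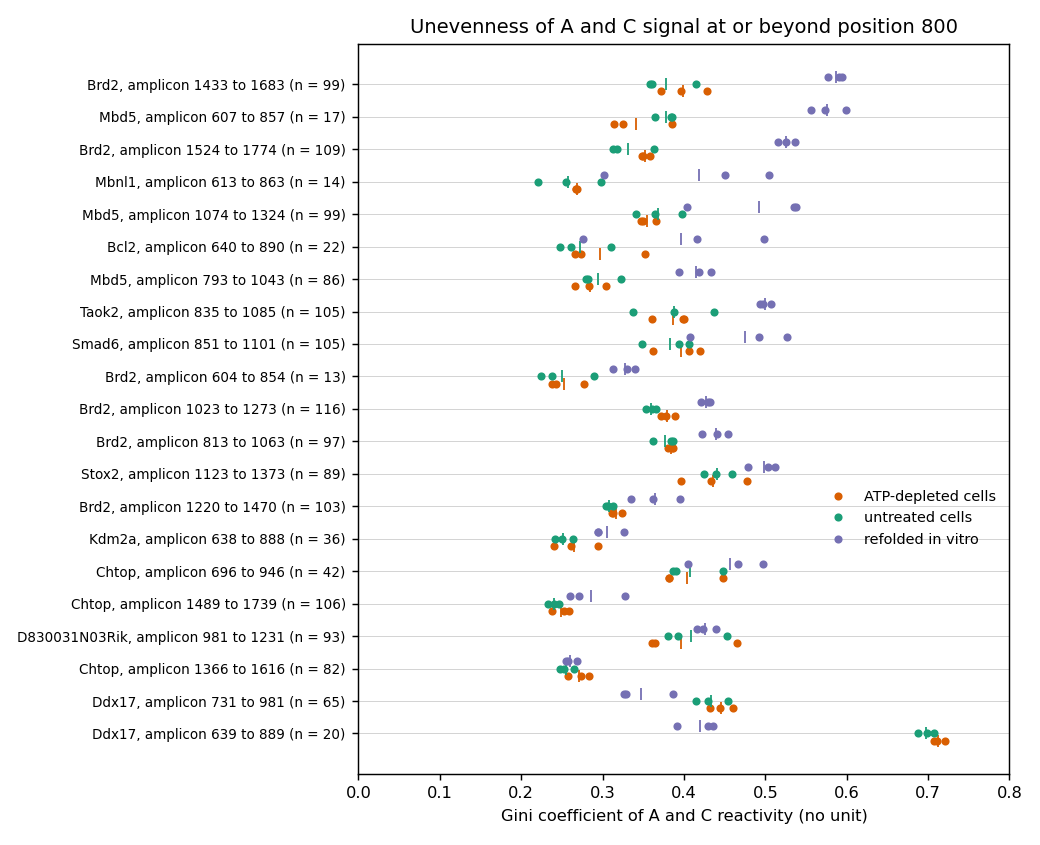
Gini coefficient of A and C reactivity (no unit) in 21 of the 23 far stretches, named by gene and amplicon positions with the number of A and C in parentheses; each point is a sample, coloured by group, and each vertical tick a group mean. Refolded samples lie to the right of the cell samples in most stretches, the Brd2 stretch of amplicon 1433 to 1683 is shifted furthest up, at 0.587 against 0.378 in untreated samples, and both Ddx17 stretches are shifted the other way.

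The 3 largest rises were in Brd2 and Mbd5. In the Brd2 amplicon 1433 to 1683 the Gini coefficient was 0.428, 0.372 and 0.397 in ATP-depleted, 0.415, 0.358 and 0.360 in untreated and 0.591, 0.594 and 0.576 in refolded samples. Refolded samples lay above every cell sample, a difference from untreated of 0.209 with SE 0.0194 (limma, adjusted p = 5.6e-05). The overlapping Brd2 amplicon 1524 to 1774 gave 0.363, 0.318 and 0.313 untreated against 0.526, 0.536 and 0.515 refolded, a rise of 0.194 with SE 0.0142 (limma, adjusted p = 1.6e-05). The far part of the Mbd5 amplicon 607 to 857 gave 0.365, 0.386 and 0.384 untreated against 0.574, 0.599 and 0.556 refolded, a rise of 0.198 with SE 0.0201 (limma, adjusted p = 7.4e-05), on 17 bases. Further down the same leader, the Mbd5 amplicon 1074 to 1324 rose by 0.125, but its refolded replicates were at 0.536, 0.538 and 0.404, the last of them from the deepest of the 3 libraries.

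Ddx17 went the other way. In the far part of its amplicon 639 to 889 the Gini coefficient was 0.707, 0.720 and 0.711 in ATP-depleted, 0.687, 0.708 and 0.699 in untreated and 0.430, 0.392 and 0.436 in refolded samples. It fell by 0.279 with SE 0.0130 (limma, adjusted p = 2.6e-06), and these 20 bases were the most uneven far stretch in cells. Over the longer far part of amplicon 731 to 981 it was 0.415, 0.455 and 0.430 untreated against 0.326, 0.386 and 0.329 refolded, a difference of -0.086 with SE 0.0186 (limma, adjusted p = 0.0033). That second change turned to 0.114 when A and C with a mean reactivity below the pooled median of 6394 CPM were left out. Among the 38 near stretches 2 passed as lower, and these were the near parts of the same Ddx17 amplicons, at -0.077 in amplicon 639 to 889 and at -0.164 in amplicon 731 to 981, a larger fall than in the far part of the latter.

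Of the 5 far stretches that did not pass against untreated cells, 2 were of Chtop, with changes of 0.0481 and 0.0054, 1 of D830031N03Rik (0.0177) and 1 of Bcl2 (0.124). Refolded libraries were shallower than cell libraries. With every amplicon's counts thinned to its smallest library, 18 far stretches again passed against untreated cells, 16 higher and 2 lower, and 16 against ATP-depleted cells.

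The change in unevenness was then set against the near side of the same leaders. Far minus near Gini, averaged over the 11 transcripts, was 0.0127, -0.0130 and -0.0142 in ATP-depleted, -0.0201, -0.0108 and -0.0144 in untreated and -0.0306, -0.0275 and -0.0471 in refolded samples. Refolded samples were the lowest, with no overlap, and the difference was -0.0200 from untreated and -0.0302 from ATP-depleted samples, each at the smallest possible p of 0.1 in the exact two-sided permutation test (adjusted 0.2). ATP-depleted and untreated samples differed by 0.0103 (p = 0.4, exact permutation test). Much of this rests on Ddx17: without it, over 10 transcripts, refolded minus untreated was -0.0073 (p = 0.6) and refolded minus ATP-depleted -0.0178 (p = 0.3, exact permutation tests), with overlapping groups. In 7 of 11 transcripts the Gini coefficient was higher in refolded samples on both sides and by less on the far side. Ddx17 was lower on both sides (-0.183 far and -0.036 near), and in Brd2, Mbnl1 and Mbd5 the far change exceeded the near one. Brd2 had the widest gap of the latter: a mean far change of 0.111 stood beside a near change of -0.0034. That near change rests on a single stretch of 84 bases. The far changes of Brd2 were 0.209 and 0.194 in the overlapping amplicons 1433 to 1683 and 1524 to 1774, and 0.0562 to 0.0769 in its other far stretches. The far change of Mbnl1 rests on 14 bases. Its refolded replicates were at 0.504, 0.451 and 0.302, the last of them from the deepest of the 3 libraries. Chtop and D830031N03Rik had far changes of 0.0334 and 0.0177 beside near changes of 0.0945 and 0.101, and no test was made for a single transcript.

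**Figure D3:**
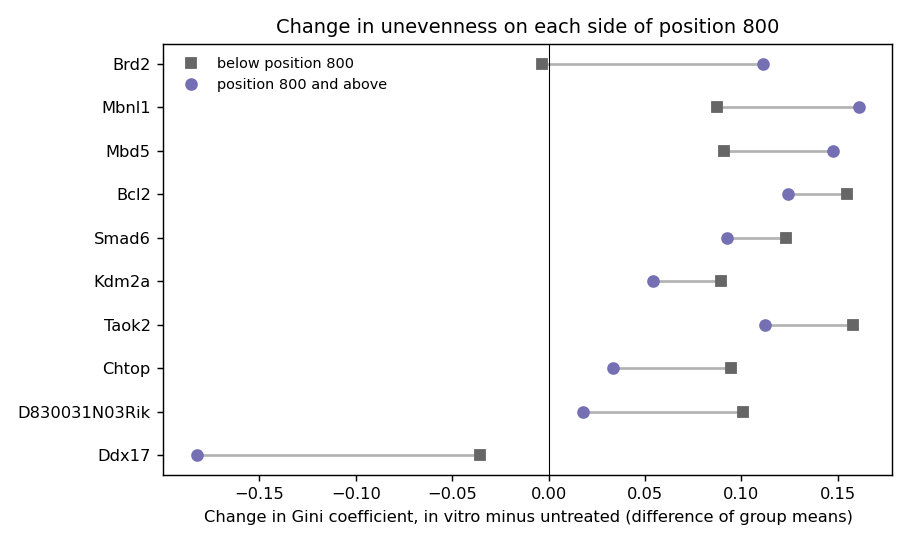
Change in the Gini coefficient from untreated to refolded samples (difference of group means, no unit) for 10 of the 11 transcripts with stretches on both sides of position 800; squares are near and circles far stretches, averaged per transcript and joined by a line. The circle lies left of the square in 7 transcripts and right of it in Brd2, Mbnl1 and Mbd5, and Ddx17 is the transcript with a far value well below 0.

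At single bases, refolding changed 280 of 1633 far readings against untreated cells (limma on log2 of CPM plus 3196.8, adjusted p under 0.05 over all 16178 A and C tested). That is 17.1% of the far readings, where 16.3% of all A and C passed, 18.3% of near ones and 15.5% of those in other transcripts. Of the 280, 134 were higher and 146 lower in vitro, where 8.08% of all A and C passed as higher and 8.18% as lower. In all 280 the replicates did not overlap between the groups, and the same held for all 2631 A and C readings that passed in the whole series. Of the far A that passed, 60 were higher and 29 lower, and of the far C, 74 were higher and 117 lower. The whole series had the same order, with 681 higher and 277 lower of 6836 A and 626 higher and 1047 lower of 9342 C. With each amplicon divided by its mean A and C reactivity the split was 88 higher and 170 lower, and with thinned counts 82 higher and 142 lower. The count fell to 141 without untreated replicate 2 and to 152 without untreated replicate 3. The size of change was alike on both sides, with a median absolute log2 difference of 0.275 far and 0.279 near, and 0.269 over all A and C.

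Against ATP-depleted cells 253 far readings passed, 145 higher and 108 lower, or 15.5% of far readings where 14.9% of all A and C passed, 8.31% as higher and 6.56% as lower. With each amplicon divided by its mean that split was 82 higher and 144 lower. Leaving out ATP-depleted replicates 1, 2 or 3 gave 152, 113 and 138. The 2 comparisons share the refolded samples, so they are not independent of each other. Between ATP-depleted and untreated cells no far reading passed (lowest adjusted p = 0.9999, limma), where 0% of all A and C passed. At an unadjusted p under 0.05 there were 46, or 2.82% of far readings, where 3.93% of all A and C passed.

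Calls were concentrated in some leaders. Brd2 held 121 (52 higher, 69 lower) and Ddx17 44 (27 higher, 17 lower), so 165 of the 280 lay in 2 leaders. In the other 13 leaders together 115 of 1011 far readings passed, or 11.4%, 55 of them higher and 60 lower. Chtop held 27, Mbd5 20, Taok2 17, Smad6 14 and Stox2 11. Ext1 had 7 of its 10, D830031N03Rik 3, Bcl2 2 and Kdm2a 1, and Mbnl1, Tle4 and Jmjd1c had none. The shares called in the same leaders below position 800 were 8.33% in Brd2 against 22.5% far, 37.8% in Ddx17 against 51.8% far, and 35.3% in Ext1 against 70.0% far. They were 14.3% near against 2.97% far in D830031N03Rik and 22.3% near against 13.3% far in Smad6. Over the 14 leaders with both sides, the share called was higher far in 6 and lower far in 8. The difference between the sides was not tested for single leaders.

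Bases read in 2 amplicons were compared between those amplicons, within the same 9 samples. Of the 173 such positions, 66 were of Brd2 and 20 of Ddx17, the 2 leaders with the most calls. In vitro against untreated, 38 of the 173 positions passed in both amplicons, all 38 in the same direction. A further 37 passed in 1 amplicon, and in all 37 the difference in the other amplicon had the same sign. The log2 differences of the 2 amplicons had r = 0.910 over the 173 positions, and the points share samples and, in runs, leaders. For ATP-depleted against untreated cells that r was 0.124.

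The Ddx17 leader held the largest rises among the far bases. The C at position 821 was at 421.7, 364.9 and 359.4 CPM in untreated and 490.6, 469.6 and 386.8 CPM in ATP-depleted samples in amplicon 639 to 889, and at 10083, 8162 and 7224 CPM in refolded samples. In amplicon 731 to 981 it was at 785.9, 483.6 and 359.0 CPM in untreated, 481.4, 306.3 and 390.9 CPM in ATP-depleted and 7854, 11863 and 10801 CPM in refolded samples. In both amplicons the lowest refolded sample lay far above the highest cell sample. The log2 difference from untreated, on the scale of CPM plus 3196.8 that understates changes of low values, was 1.70 with SE 0.11 (limma, adjusted p = 0.00019) and 1.83 with SE 0.13 (adjusted p = 0.00025). A second C, at position 831, was the other of the 4 largest rises, again in both amplicons: 644 ± 78.0 CPM in untreated against 8635 ± 541 CPM in refolded samples in the first, and 709 ± 381 against 8269.6 ± 409 CPM in the second (SD, n = 3). These 4 readings were also the largest rises against ATP-depleted cells. Both bases lie in the first window printed above.

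In that window 9 of 12 A and C passed as higher in vitro and none as lower. The mean of the readings that passed was 827, 783 and 831 CPM in untreated, 668, 671 and 769.9 CPM in ATP-depleted and 6013, 6009 and 5519.98 CPM in refolded samples. A few bases between 801 and 853 were highly reactive in cells all the same. One of them, the C at position 853 and among the 4 highest far readings, was at 37353 ± 3751 CPM in ATP-depleted, 37275 ± 4252 CPM in untreated and 36759 ± 601 CPM in refolded samples (SD, n = 3), with a log2 difference from untreated of -0.013 (adjusted p = 0.951). Just downstream the direction turned. At position 866 a C was at 7910.3, 11461 and 10328 CPM in untreated, 7858, 11967 and 10140 CPM in ATP-depleted and 983, 1443 and 1349 CPM in refolded samples, a log2 difference of -1.55 with SE 0.15 (limma, adjusted p = 0.00083) and the largest fall among the far bases. In the window from 871 to 900, 9 of 17 A and C passed as lower, from 8636 ± 937 CPM untreated to 3696 ± 714 CPM refolded, while 6 others passed as higher.

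**Figure D4:**
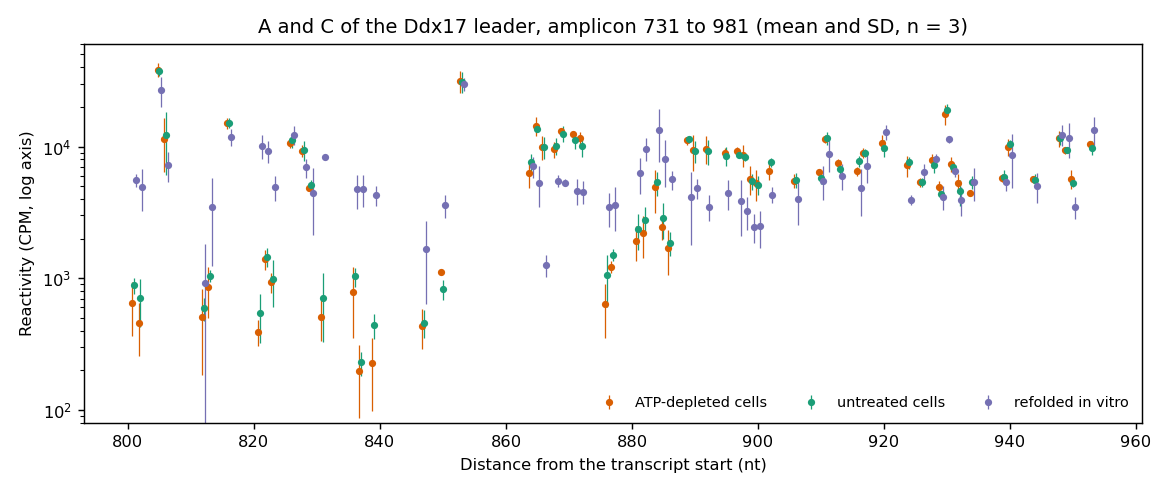
Reactivity (CPM, log axis) of the 65 A and C of the Ddx17 leader read in amplicon 731 to 981, against distance from the transcript start; points are means of 3 samples and bars their SD. From 801 to 850 many bases lie lower in both cell groups than after refolding, while around position 866 the refolded points lie below the cell points.

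The most downstream part of the Brd2 leader that was read held the largest block of changes. In its 2 amplicons that start at 1433 and 1524, 94 of 208 readings passed, or 45.2%, 36 higher and 58 lower. These 2 amplicons overlap, so bases read in both are counted in each. In the 4 Brd2 amplicons upstream, with far bases from 803 to 1451, 27 of 329 passed, or 8.21%. Across all leaders the share called was 17.6% at positions 800 to 999, 8.66% at 1000 to 1199, 6.28% at 1200 to 1399, 25.4% at 1400 to 1599 and 35.3% at 1600 to 1799, and beyond 1400 the readings are of Brd2 and Chtop alone. The rise with position therefore cannot be told apart from these 2 leaders.

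**Figure D5:**
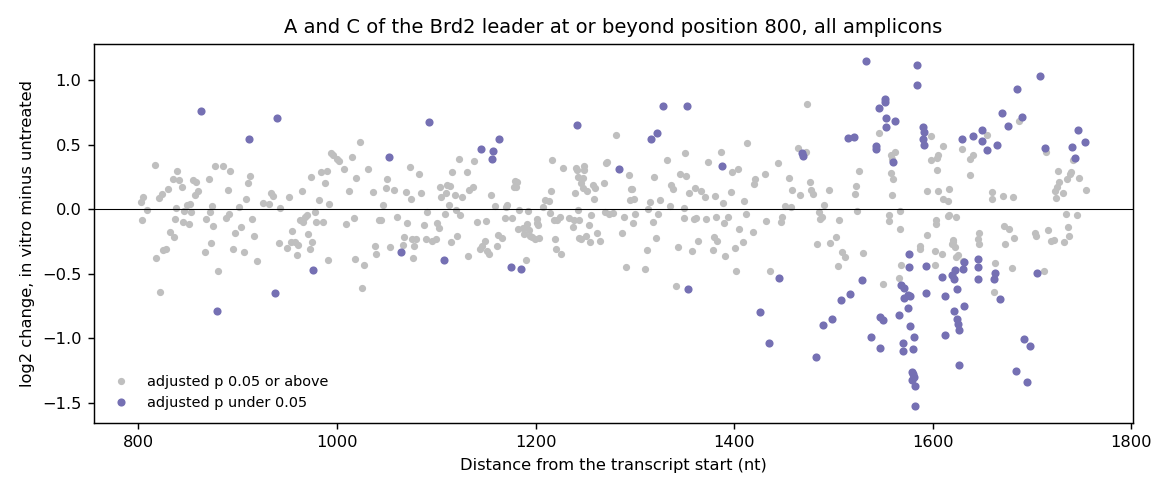
Change in reactivity from untreated to refolded samples (log2 of CPM plus 3196.8) for the 537 far A and C readings of the Brd2 leader, against distance from the transcript start; coloured points passed the test and grey points did not. Coloured points are sparse before 1433 and dense after it, up to 1.15 and down to -1.52.

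In this block the C at position 1582 was the base with the largest fall. It was at 7541, 7795 and 8067 CPM in untreated, 8117, 7353 and 8343 CPM in ATP-depleted and 609.7, 336 and 996 CPM in refolded samples of amplicon 1524 to 1774, a log2 difference of -1.52 with SE 0.10 (limma, adjusted p = 0.00019). In amplicon 1433 to 1683 it was at 7192 ± 780.3 CPM in untreated and 843 ± 563 CPM in refolded samples (SD, n = 3), a difference of -1.37 (adjusted p = 0.00065). Its neighbour at position 1579, also a C and named by its fall against ATP-depleted cells, was at 8599, 6385 and 5599 CPM there and at 881, 336 and 267 CPM in refolded samples, a difference of -1.44 (adjusted p = 0.00074). Refolded counts behind these 2 bases in that amplicon were as low as 4, so the depth of the fall is poorly bounded. Both lie in the window from 1566 to 1595, where 12 of 18 A and C passed as lower and 3 as higher. The readings of that window that passed as lower averaged 4266, 4672 and 4605 CPM in untreated and 763, 998 and 829 CPM in refolded samples. In the window from 1609 to 1638, 10 of 17 passed as lower and 1 as higher, and those that passed as lower went from 3391 ± 590.1 to 782 ± 140 CPM. In the window from 1533 to 1562, 7 of 13 passed as higher and 3 as lower, and those that passed as higher went from 10940.1 ± 226 to 20619 ± 1010.0 CPM.

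The strongest far signal of all was also in Brd2, where the C at position 1650 was at 56634, 49602 and 47306 CPM in untreated, 62177, 55097 and 56591 CPM in ATP-depleted and 83850.4, 79121 and 76127 CPM in refolded samples of amplicon 1433 to 1683. It rose by 0.61 log2 units on refolding (SE 0.10, adjusted p = 0.0071, limma). In amplicon 1524 to 1774 the same C was at 28365 ± 2825 CPM untreated and 42303 ± 721 CPM refolded. This C lies 13 positions before the last one read in amplicon 1433 to 1683 and 104 before it in amplicon 1524 to 1774. Why its level differed between the amplicons was not tested. The remaining high readings were the A at position 812 of Chtop, at 49259.5 ± 1846 CPM untreated and 54365 ± 14899 CPM refolded (adjusted p = 0.716), and the C at position 1173 of Mbd5, at 32826 ± 1702 and 45313 ± 9279.99 CPM (adjusted p = 0.10). The 4 lowest far readings with a count in every library were C: positions 1042 and 1318 of Brd2 at 285 ± 63.3 and 550.4 ± 251 CPM in untreated samples, and positions 978 and 983 of Taok2 at 264 ± 124 and 313 ± 111 CPM. None of these 4 passed a test, but the constant added to CPM before testing lies far above their levels. A fall at such bases could therefore hardly pass, and whether they changed is not decided. The C at position 1042 of Brd2 was at 263, 357 and 237 CPM in untreated samples. In refolded samples it was at 57.5, 124 and 67.3 CPM, on 1 to 2 counts. The replicates of these 2 groups overlapped at the other bases.

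Other leaders gave fewer large shifts. In Smad6 the C at position 1046 was at 9462, 9106 and 8809.8 CPM in untreated and 498, 2151 and 2382 CPM in refolded samples, a log2 difference of -1.36 with SE 0.21 (limma, adjusted p = 0.0054), on 3 to 70 refolded counts. An ATG starts at position 1036 of this transcript, and whether this C lies in coding sequence was not tested. In Chtop the C at position 867 was chosen by its difference of -1.56 from ATP-depleted cells (adjusted p = 0.035). Its refolded replicates were at 362, 415 and 7984 CPM, the first of them from 0 counts, so the refolded samples differed widely among themselves, and the call was lost under 11 of 22 other settings.

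Few far bases of the Ext1 leader were read, but most passed. The last A or C read is at position 810, and 7 of 10 readings passed, 2 higher and 5 lower. The 10 readings cover 7 distinct positions, since some were read in both amplicons. The A at position 806 was at 7705 ± 589 CPM in untreated and 12790.4 ± 1629 CPM in refolded samples of amplicon 575 to 825 (SD, n = 3). In amplicon 581 to 831 it was at 7411 ± 1343 and 13140.2 ± 2034 CPM, and both readings passed as higher (limma, adjusted p = 0.016 and 0.018). A C at position 802 was at 4861 ± 671 CPM untreated and 1861 ± 449.7 CPM refolded in the first amplicon and at 3819 ± 650.5 and 1728 ± 694 CPM in the second, and both passed as lower (limma, adjusted p = 0.0076 and 0.033).

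Between the 2 kinds of cells the largest far differences did not pass the test, and their values follow for the 4 bases with the largest shifts and no overlap of replicates. In Smad6 the C at position 919 was at 13199, 8946 and 6901 CPM in ATP-depleted and 4446, 4562 and 3241 CPM in untreated samples. The A at position 1248 of Stox2 was at 15019, 10685 and 11838 CPM against 6064, 5635 and 6056 CPM. In Taok2 the C at position 930 was at 1873, 4487 and 2719.6 CPM against 5257, 8334 and 13382 CPM, and the C at position 914 of Smad6 at 2180.1, 2338 and 1626 CPM against 9234, 5507 and 5390.1 CPM. The log2 differences were 0.80, 0.78, -0.94 and -0.90, each with an adjusted p of 0.9999 (limma). None was read in a second amplicon, so no second reading of these bases stands beside them.

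The neighbouring bases of the readings that passed were counted. Among the 60 far A that passed as higher in vitro, 51.7% followed a G, against 33.6% of all 681 far A. Among near A the shares were 29.1% of the 148 that passed as higher and 30.4% of all 1500. Of the 117 far C that passed as lower, 38.5% preceded a C, against 32.7% of all 952. Near C had the opposite order, with 25.3% of the 245 that passed as lower and 30.9% of all 1887. These shares were picked from many, and others differed as much. Of the 81 near A that passed as lower, 48.1% followed a G, against 30.4% of all near A. Of the 29 far A that passed as lower, 41.4% preceded a C, against 21.0% of all far A. The readings share leaders and, in part, positions, so these shares describe the set and were not tested.

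The limit at position 800 cuts through continuous sequence. The 42 readings at positions 800 to 804 had a median of 5434 ± 148 CPM in untreated and 4843 ± 445 CPM in refolded samples, and 8 passed. The 41 readings at 795 to 799 had 6241 ± 956 and 5317 ± 697 CPM, and 9 passed (SD, n = 3).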

How the data were processed

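Per the deposited table, values are log2 with 1 column per sample. They equal log2 of (count + 0.5) scaled to CPM within an amplicon and sample: whole counts were recovered in all 1449 libraries (tolerance 0.0001), so raising 2 to them gives CPM. The submitters' processing notes name bcl2fastq, Bowtie2 and limma, with no role or version; no mutation counter or genome build is named there or in the labels. Reads carry no molecular identifiers, so a count can hold copies of the same molecule and may understate the counting error. Positions matched RefSeq promoter sequence (GRCm38.p6) at the transcript start in 270 of 270 bases of 11 genes. Samples held 5743965 to 12616275 counts.

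Here CPM plus 3196.8 (0.5 times the pooled A and C median) was log2-transformed and tested with limma 3.58.1 in R 4.3.3, all 9 samples in 1 fit with a mean per group, Benjamini-Hochberg over 16178 A and C, threshold 0.05. Gini coefficients were tested likewise over 171 stretches. Reactivity on the linear scale was planned; the file held log2 values, which were turned back. Sample-level values used exact permutation tests, adjusted over 42. The limma and Gini code was tested on simulated data.

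The members and lists were chosen with earlier results of these data known. Named bases are the 4 largest rises and falls that passed with no overlap for each comparison with refolded samples, 2 and 2 by unadjusted p for the other, and the 4 highest and lowest levels, and Gini stretches the 3 largest rises and falls. Sequence windows were added after the values were seen. Replicate numbers did not pair samples: deviations of same-numbered samples correlated at -0.018 to 0.10. Values of 1 leader are counted in the totals but not reported here.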

Additional observations from a re-analysis of the deposited data

Results flagged for a closer look

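Signal was present at far bases outside the A and C analysed above. Of the 990 far G readings, 88.4% of readings over all samples held more than 3 counts, with a median of 818 ± 34.7 CPM in untreated samples (SD, n = 3). Of the 809 far U readings, 96.7% held more than 3 counts, with a median of 3804 ± 439 CPM. No sample without dimethyl sulfate was analysed here, so the level these bases would have without probing is not known.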

How the results depend on the processing

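The counts of far bases that passed depended on what was tested. Against untreated cells the count of 280 became 123 with bases at or above the pooled median alone, 86 with A alone, 423 from position 700, 167 from position 1000 and 146 with the 6 samples compared alone; leaving out 1 replicate gave 141 to 284. Against ATP-depleted cells the count of 253 became 126, 87, 402, 151 and 163 in the same order, and 113 to 274. Alternatives that change the bases tested or drop samples differ by construction in what can pass. The count between ATP-depleted and untreated cells was 0 under all 25 settings tried. For stretches, the 18 against untreated cells became 11 at or above the pooled median, 11 with A alone, 31 from position 700 and 8 from position 1000, and 14 to 19 without 1 replicate. The 17 against ATP-depleted cells became 10 with A alone, 29 from 700 and 8 from 1000, and 13 to 18 without 1 replicate. The fall in Gini of Ddx17 amplicon 731 to 981 turned to 0.114 against untreated and 0.113 against ATP-depleted cells at or above the pooled median; the cause was not tested.

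The far over near difference changed sign between settings, and the cause was not tested. Refolded minus untreated was 0.159 without 25 positions at each amplicon end, 0.0322 from position 700, 0.0463 with C alone and 0.0123 in amplicons on both sides of 800, and -0.028 to 0.0265 without 1 replicate. Refolded minus ATP-depleted was 0.167, 0.0757, 0.177 and 0.0856 in the same order, 0.0114 with each amplicon divided by its mean, and -0.023 to 0.00472 without 1 replicate. ATP-depleted minus untreated was -0.0086 without amplicon ends, -0.0435 from 700, -0.0316 from 1000, -0.0369 with A alone, -0.131 with C alone, -0.0968 with each amplicon divided by its mean and -0.0733 in amplicons on both sides, and -0.019 to 0.0349 without 1 replicate. Far minus near Gini between ATP-depleted and untreated cells was -0.0011 from position 1000. The far A to C difference between them was -0.034 to 0.0741 without 1 replicate. For refolded samples, far minus near Gini stayed below 0 under all 15 other settings, at -0.0073 and -0.0178 without the Ddx17 leader, and the A to C difference above 0 under all 12. Fits with the replicate block gave 236, 222 and 0 bases and 18, 16 and 0 stretches for the 3 comparisons. Thinned counts, the amplicons with at least 5000 counts, the untransformed deposited values the amplicons on both sides of 800 and leaving out Ddx17 were chosen after seeing the data. Depth limits the low refolded values most: 13 of 84 refolded far libraries held under 5000 counts.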
